A study of Mus musculus with 9 samples.

Results

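Transcripts of the Hippo pathway, its effectors YAP and TAZ and their target genes were followed in the mouse anterior lens capsule, a preparation that carries the lens epithelium on its basement membrane. The group comprises 10 genes of the 17527 gene symbols in the deposited count table and was given as a list of names: Yap1, Wwtr1 (which encodes TAZ), Lats1, Lats2, Tead1, Ccn1, Ccn2, Ankrd1, Amotl2 and Axl. All 10 have a row in the table, and 9 passed the filter on low counts. RNA sequencing was done on 3 libraries of aged mice treated with EGCG (the green tea catechin epigallocatechin gallate), 3 of aged control mice and 3 of young control mice. The series title ties EGCG to a delay of age-related cataract. The sources used here do not give the strain, the ages in days or months, or the dose, route and duration of EGCG. They also do not say whether each library is its own animal, so a p-value speaks only to variation among these libraries, and that variation may be technical.

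In the Hippo pathway the kinases LATS1 and LATS2 phosphorylate YAP and TAZ, which holds them in the cytoplasm or sends them to degradation. Unphosphorylated YAP and TAZ enter the nucleus and act as coactivators of the TEAD transcription factors, which have no strong activating activity of their own. Ccn1 and Ccn2 encode secreted matricellular proteins, Ankrd1 an ankyrin repeat protein, Amotl2 an angiomotin that binds YAP, and Axl a receptor tyrosine kinase, and all 5 are classical YAP target genes, as is Lats2, which feeds back on the pathway. Cell shape, tension on the actin cytoskeleton and cell density set the pathway's output, and in the lens Yap1 is known for keeping epithelial cells in their progenitor state. Localization and phosphorylation of the proteins were not measured here.

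The TEAD motif GGAATG recurs near the starts of these genes, and the windows that hold it are shown for that reason. RefSeq promoter windows of build GRCm38.p6 reach from 250 bases before to 50 bases after a gene's start, and 8 of the 10 genes were matched. Ccn2 and Tead1 were not matched. On either strand the motif was found in 7 of the 8 genes, in all but Lats1, against 16.6% of 27025 genes in the promoter table and 14.4% of the 10886 matched genes that passed the filter. The list was made up of pathway genes and known YAP targets, so this contrast is not a test. A match is a description of the letters and not evidence of binding. The AP-1 motif TGACTCA and the CArG box, the motif of serum response factor (SRF), had no match on either strand in the 8 genes, against 5.95% and 1.81% of all genes in the promoter table. For Ccn1 the 250 bases before the start, chr3:145649986-145650235 on the minus strand, are printed 5′ to 3′ in the direction of the gene, with the TEAD motif in capitals, here as its reverse complement beginning 103 bases before the start.
Ccn1: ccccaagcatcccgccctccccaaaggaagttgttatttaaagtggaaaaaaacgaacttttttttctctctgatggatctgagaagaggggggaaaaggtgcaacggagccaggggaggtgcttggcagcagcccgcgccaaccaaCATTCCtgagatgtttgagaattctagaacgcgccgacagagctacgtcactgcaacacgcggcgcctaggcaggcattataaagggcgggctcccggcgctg

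The other matches are shown with 10 bases on each side, again in the direction of the gene and with the motif in capitals. They allow the flanks to be compared. The motif begins 141 bases before the start in Yap1, 136 and 170 bases before the 2 annotated starts of Wwtr1, 65 before it in Amotl2, 233 before it in Axl, and 210 and 123 before it in Ankrd1. In Lats2 it lies just after one of the 2 annotated starts. All these starts are those of the RefSeq windows, which can differ from the GENCODE bounds given below for each gene. The stretches of Lats2, Amotl2 and Ankrd1 lie inside those GENCODE bounds, and the stretches of the other genes lie before them in the direction of the gene. The stretches are chr9:8004722-8004747 (minus strand) for Yap1, chr3:57576031-57576056 (minus) for Wwtr1, chr14:57746104-57746129 (minus) for Lats2, chr9:102717729-102717754 (plus) for Amotl2, chr7:25788951-25788976 (minus) for Axl, and chr19:36120039-36120064 and chr19:36119952-36119977 (minus) for Ankrd1. In Ccn1 and Amotl2 the motif stands on the opposite strand and reads CATTCC.
Yap1: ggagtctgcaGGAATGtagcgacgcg
Wwtr1: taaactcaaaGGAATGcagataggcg
Lats2: tgacgcccgtGGAATGccaacaatgt
Amotl2: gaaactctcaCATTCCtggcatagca
Axl: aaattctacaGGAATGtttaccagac
Ankrd1, distal: cactgccaaaGGAATGaccctctcac
Ankrd1, proximal: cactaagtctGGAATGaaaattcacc

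Library totals lay between 13184169 and 16528179 counts, and 3 counts equal 0.182 to 0.228 CPM, the unit used here for counts brought to equal library totals. Levels below are CPM scaled with edgeR's TMM factors, given with the SD over 3 libraries, and intervals reflect counting error together with library-to-library spread. A gene was called when its edgeR quasi-likelihood p, adjusted over all 13711 genes tested, was under 0.05. All 18 lens epithelium markers were detected in every group, and Foxe3, a transcription factor of the lens epithelium, had 149 ± 5.88 CPM in EGCG, 187 ± 14 in aged control and 105 ± 1.98 in young control libraries. These markers moved with the groups, 9 lower and none higher with EGCG and 11 higher and 3 lower in aged against young control, but with library size only these counts became 3 higher and 5 lower with EGCG and 9 higher and 8 lower with age. The 21 lens fibre markers, to which libraries were scaled in one alternative, moved as well: they took 3.99 to 4.1% of the counts in EGCG, 4.15 to 4.34% in aged control and 4.94 to 4.95% in young control libraries, with 14 lower and none higher with EGCG and 13 higher and 8 lower with age. Over all genes tested 13.8% were called higher and 10.3% lower with EGCG, and 35.4% and 33.8% with age. Photoreceptor transcripts were also present. The 32 retina markers took 0.835 to 0.839% of the counts in EGCG, 0.112 to 0.12% in aged control and 2.06 to 2.08% in young control libraries. In bulk tissue, fewer cells of a type and less RNA per cell cannot be told apart. The split of calls over all genes depended on scaling. Of the genes called, 57.4% were higher in EGCG than in aged control libraries, but 83.5% with library size only and 91.3% when scaled to lens fibre markers. Between aged and young control 51.1% were higher, but 31.3% with library size only, and between EGCG and young control 50.7%, but 35.7% with library size only. With library size only the median of all genes lay at -0.30 on the log2 scale between aged and young control and at 0.12 between EGCG and aged control. Fold changes also varied with gene length, with Spearman correlations over 13711 genes, which are not independent replicates, of 0.11 for EGCG against aged control, -0.329 for aged against young control and -0.358 for EGCG against young control.

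With EGCG, 5 of the 9 members tested were lower than in aged control capsule and none was higher, whereas 24.1% of all genes tested were called in either direction, 13.8% higher and 10.3% lower. The lower members were the secreted-protein genes Ccn2 and Ccn1, at about the same fold, and more weakly the factor Tead1 and the coactivators Yap1 and Wwtr1. The median log2 fold change of the 9 was -0.29, against -0.00383 over all genes tested. Between aged and young control, 4 of the 9 were higher (Yap1, Tead1, Ccn2 and Amotl2) and 1 was lower (Ccn1), where 69.2% of all genes tested were called in either direction, 35.4% higher and 33.8% lower, so a count of 5 of 9 is no larger than the background. The median there was 0.03, against 0.02 over all genes. Between EGCG and young control, 3 were higher and 3 lower, where 63.6% of all genes were called, 32.3% higher and 31.4% lower, and with library size only 2 members were higher and 5 lower. The libraries of the groups compared did not overlap for 4 of the 9 with EGCG against aged control, 5 in aged against young control and 5 with EGCG against young control, where the shares over all genes were 33.5%, 72.1% and 68.3%. These 3 comparisons share libraries pairwise, and their values are given side by side below. Of the 5 calls with EGCG, those of Ccn1 and Ccn2 held in all 18 alternatives tried, whereas those of Yap1 (adjusted p up to 0.485), Tead1 (up to 0.129) and Wwtr1 (up to 0.22) did not.

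**Figure D1:**
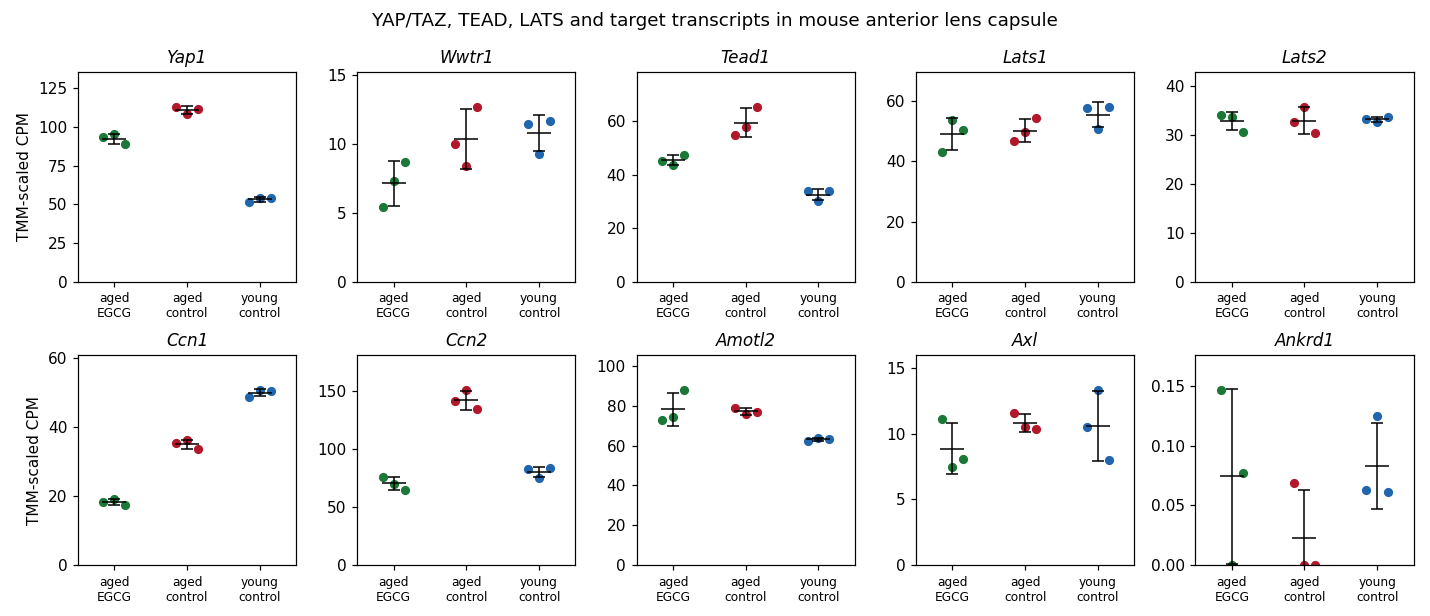
TMM-scaled CPM (vertical axis, linear from 0) of the 10 genes in 3 aged EGCG, 3 aged control and 3 young control libraries; points are libraries, and the bar with whiskers is the mean ± SD. Ccn2 peaked in aged control libraries, Ccn1 was lowest in EGCG libraries, and Ankrd1 never exceeded 2 counts.

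Yap1, the coactivator YAP (GRCm38 chromosome 9, 7931999 to 8004596, minus strand, GENCODE M21), had 93.4, 95.3 and 89.1 CPM in EGCG libraries, 113, 108.5 and 111.5 CPM in aged control libraries and 51.7, 54.4 and 54.15 CPM in young control libraries. The 3 groups did not overlap: every aged library lay well above every young one, and the EGCG libraries lay between the other groups, nearer to aged control. Relative to aged control Yap1 was lower with EGCG by -0.26 on the log2 scale (SE 0.0618, edgeR adjusted p = 0.000985). This call was lost with library size only (-0.13, adjusted p = 0.118), when scaled to lens fibre markers (-0.06, adjusted p = 0.485) and on log2(FPKM + 1) by limma (-0.13, adjusted p = 0.107). In aged against young control Yap1 rose 2.08-fold (log2 fold change 1.06, SE 0.0636, adjusted p = 1.33e-19), and it was between 0.70 and 1.11 higher on the log2 scale in the 18 alternatives. Against young control the EGCG libraries were 0.79 higher (adjusted p = 5.77e-15). Foxe3 had the same order of groups, and the part of the lens epithelium markers in the Yap1 and Tead1 results was not tested.

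Wwtr1, which encodes the YAP paralog TAZ (chromosome 3, 57455649 to 57575910, minus strand), was far less abundant per length than Yap1, as given below in FPKM. It had 5.42, 7.34 and 8.67 CPM in EGCG libraries, 9.97, 8.43 and 12.7 CPM in aged control libraries and 11.4, 9.29 and 11.7 CPM in young control libraries. The highest EGCG library exceeded the lowest aged control library, so these groups overlapped, and the aged and young control libraries overlapped as well. Wwtr1 was lower with EGCG by -0.53 (95% interval -0.92 to -0.15, edgeR adjusted p = 0.0341), a call that was lost on leaving out aged control replicate 1 (adjusted p = 0.0501), aged control replicate 3 (0.22), EGCG replicate 1 (0.201) or EGCG replicate 2 (0.0611), when only these 2 groups were fitted (0.0504), with library size only (0.115), when scaled to lens fibre markers (0.179) and on log2(FPKM + 1) (0.205). It did not pass the test between aged and young control, at -0.06 (95% interval -0.43 to 0.30, adjusted p = 0.772). Against young control the EGCG libraries were lower by -0.60 (adjusted p = 0.00537, and 0.0592 without EGCG replicate 1).

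Tead1, the DNA-binding partner of YAP and TAZ (chromosome 7, 112679318 to 112906807, plus strand), had 45.3, 43.7 and 47.4 CPM in EGCG libraries, 55.1, 58.0 and 65.45 CPM in aged control libraries and 33.9, 30.2 and 33.9 CPM in young control libraries. As for Yap1, the 3 groups did not overlap and the EGCG libraries lay in the middle. Tead1 was lower with EGCG by -0.39 on the log2 scale (SE 0.0837, edgeR adjusted p = 0.000326), a call lost when scaled to lens fibre markers (-0.19, adjusted p = 0.0921) and on log2(FPKM + 1) (-0.22, adjusted p = 0.128). It rose 1.82-fold in aged against young control (log2 fold change 0.86, SE 0.085, adjusted p = 1.81e-12), a value between 0.44 and 1.29 in the 18 alternatives, the highest with the length trend removed. Against young control the EGCG libraries were 0.48 higher (adjusted p = 5.25e-06), or 0.89 with the length trend removed and 0.23 on log2(FPKM + 1).

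The LATS kinases did not pass the test in any of the 3 comparisons. Lats1 (chromosome 10, 7681214 to 7716460, plus strand) had 43.2, 53.7 and 50.3 CPM in EGCG libraries, 46.6, 49.6 and 54.4 CPM in aged control libraries and 57.65, 50.7 and 58.1 CPM in young control libraries, with overlap between every pair of groups. Its log2 fold change was -0.03 for EGCG against aged control (95% interval -0.20 to 0.14) and -0.15 for aged against young control (95% interval -0.31 to 0.02, edgeR adjusted p = 0.119). The difference with age was called with library size only (-0.47, adjusted p = 8.89e-06), scaled to lens fibre markers (-0.25, adjusted p = 0.00909), without aged control replicate 3 (-0.20, adjusted p = 0.0483) and without young control replicate 2 (-0.21, adjusted p = 0.0471). It was also called with these 2 groups alone (-0.19, edgeR adjusted p = 0.0315). By limma it was called on log2(FPKM + 1) (-0.41, adjusted p = 0.00278) and log2(FPKM + 0.1) (-0.46, adjusted p = 0.00274). With the length trend removed the value was 0.14. Against young control the EGCG libraries were at -0.18 (adjusted p = 0.0619), called with DESeq2 (-0.23, adjusted p = 0.0297), with library size only (-0.37), without EGCG replicate 2 (-0.24) and without young control replicate 2 (-0.24). This difference was also called with these 2 groups alone (-0.18, edgeR adjusted p = 0.0472). By limma it was called on log2(FPKM + 1) (-0.33, adjusted p = 0.011) and log2(FPKM + 0.1) (-0.37, adjusted p = 0.0114). Lats2 (chromosome 14, 57689662 to 57758388, minus strand), itself a YAP target, had 34.05, 33.7 and 30.6 CPM in EGCG libraries, 32.7, 35.7 and 30.3 CPM in aged control libraries and 33.2, 32.5 and 33.6 CPM in young control libraries. The interval of its difference with EGCG was -0.20 to 0.19 and that with age -0.20 to 0.18. With library size only Lats2 was lower in aged than in young control (-0.33, adjusted p = 0.00216). By limma it was also lower on log2(FPKM + 1) (-0.29, adjusted p = 0.00612) and log2(FPKM + 0.1) (-0.33, adjusted p = 0.00611).

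Ccn2, which encodes the matricellular protein CTGF (chromosome 10, 24595442 to 24598683, plus strand), had the highest level per length of the members in each group. It had 76.3, 69.9 and 64.9 CPM in EGCG libraries, 141, 151 and 134 CPM in aged control libraries and 82.6, 75.2 and 83.3 CPM in young control libraries. Every aged control library lay above all 6 others, and the highest EGCG library exceeded the lowest young control library. Ccn2 fell with EGCG by a log2 fold change of -1.01 (95% interval -1.15 to -0.88, edgeR adjusted p = 1.28e-17) and rose 1.77-fold in aged against young control (log2 fold change 0.82, SE 0.0644, adjusted p = 1.3e-15). Both calls held in all 18 alternatives, between -1.08 and -0.81 for EGCG and between 0.49 and 0.87 for age. EGCG libraries were -0.19 below young control (adjusted p = 0.0116), a call lost without EGCG replicate 3 (adjusted p = 0.116), young control replicate 1 (0.0573) or young control replicate 3 (0.0702), and when scaled to lens fibre markers (0.198), while the value was -0.40 with the length trend removed and -0.39 with library size only.

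Ccn1, CYR61 in the older nomenclature (chromosome 3, 145646976 to 145649981, minus strand), is the other CCN gene among the members and moved differently with age. It had 18.2, 19.1 and 17.4 CPM in EGCG libraries, 35.3, 36.1 and 33.5 CPM in aged control libraries and 48.8, 50.6 and 50.2 CPM in young control libraries. The 3 groups were separate, with the EGCG libraries lowest and the young control libraries highest. The log2 fold change was -0.94 with EGCG (95% interval -1.14 to -0.74, edgeR adjusted p = 5.33e-11) and -0.51 in aged against young control (SE 0.0886, adjusted p = 1.97e-06). Against young control the EGCG libraries were lower by -1.45 (adjusted p = 3.93e-18), a 2.73-fold difference. These calls held in all 18 alternatives, and the value with age was -0.78 with the length trend removed and -0.83 with library size only.

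**Figure D2:**
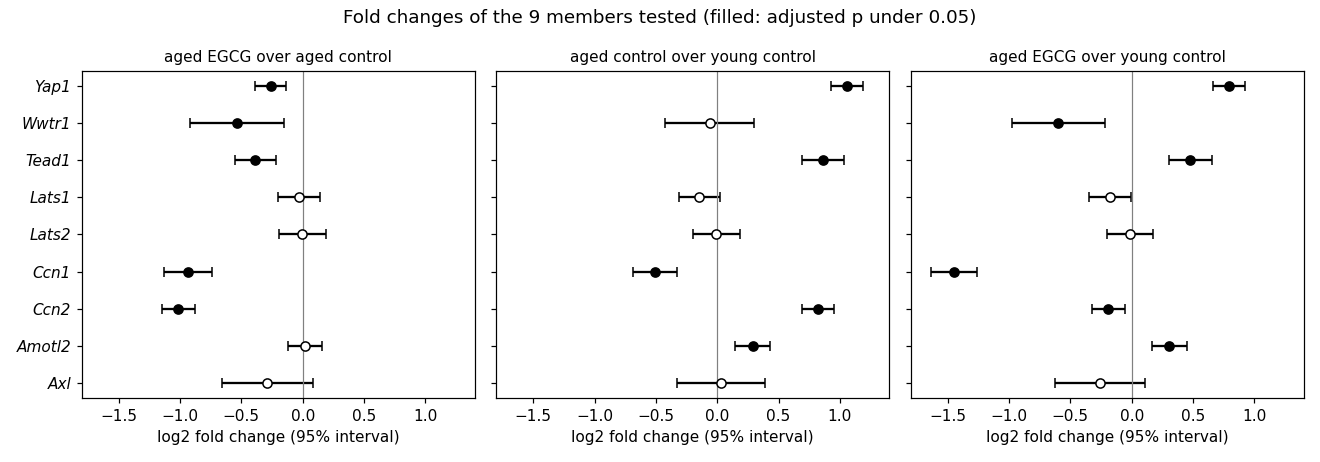
Log2 fold changes (horizontal axis) with 95% intervals of the 9 members tested, for aged EGCG over aged control, aged control over young control and aged EGCG over young control; filled points passed an adjusted p of 0.05 in edgeR. Ccn1 and Ccn2 lay close together at -0.94 and -1.01 in the first comparison and on opposite sides of 0 in the second, at -0.51 and 0.82, while with library size only Amotl2 turned to -0.03 in the second.

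Ratios within a library do not depend on library scaling. The Ccn2 to Ccn1 ratio of FPKM values (read counts scaled to gene length and library total, a level per length) was 3.55, 3.08 and 3.15 in EGCG libraries, 3.38, 3.52 and 3.38 in aged control libraries and 1.43, 1.25 and 1.4 in young control libraries. All 6 aged libraries were above all young ones, and the EGCG and aged control libraries overlapped. The mean log2 ratio differed by 1.33 between aged and young control and by -0.07 between EGCG and aged control (two-sided exact permutation p = 0.1 and 0.4, where 0.1 is the smallest p that 3 against 3 libraries allow). The Wwtr1 to Yap1 ratio was 0.0508, 0.0674 and 0.0852 in EGCG libraries, 0.0772, 0.068 and 0.0997 in aged control libraries and 0.194, 0.149 and 0.189 in young control libraries, so TAZ transcripts made up a smaller share relative to YAP transcripts in all 6 aged libraries. Its mean log2 value differed by -1.13 between aged and young control (exact permutation p = 0.1) and by -0.28 between EGCG and aged control (exact permutation p = 0.4). The Lats2 to Lats1 ratio overlapped between all groups, between 0.728 and 1.03 over the 9 libraries, with exact permutation p between 0.3 and 1. After Benjamini-Hochberg adjustment over these 9 comparisons of ratios the smallest exact permutation p was 0.225.

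**Figure D3:**
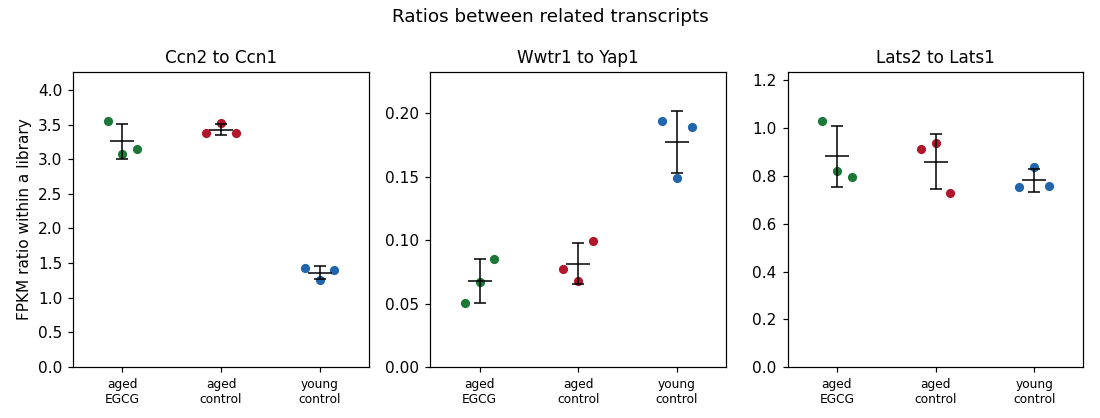
FPKM ratios within each library (vertical axes, linear from 0) for Ccn2 to Ccn1, Wwtr1 to Yap1 and Lats2 to Lats1; points are libraries and bars the mean ± SD of 3. The young control libraries stand apart in the first 2 panels, at 1.25 to 1.43 and 0.149 to 0.194, and the groups overlap in the third.

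Amotl2, the angiomotin-like scaffold (chromosome 9, 102716672 to 102733418, plus strand), had 72.7, 74.5 and 87.9 CPM in EGCG libraries, 79.2, 76.0 and 76.8 CPM in aged control libraries and 62.5, 63.9 and 63.6 CPM in young control libraries. The young control libraries were lowest, and the EGCG libraries lay on both sides of aged control. Amotl2 was higher in aged than in young control by 0.29 (SE 0.0704, edgeR adjusted p = 0.000364), a change that turned to -0.03 with library size only (adjusted p = 0.689) and on log2(FPKM + 1) (adjusted p = 0.714). With EGCG it differed from aged control by 0.02 (95% interval -0.12 to 0.16), which was 0.22 and called when scaled to lens fibre markers (adjusted p = 0.0164). Against young control the EGCG libraries were 0.31 higher (adjusted p = 0.000199), a call lost with library size only (0.11, adjusted p = 0.175) and on log2(FPKM + 1) (0.10, adjusted p = 0.233). Axl, a TAM receptor (chromosome 7, 25757273 to 25788705, minus strand), had 11.1, 7.47 and 8.06 CPM in EGCG libraries, 11.6, 10.5 and 10.4 CPM in aged control libraries and 10.5, 13.3 and 8.01 CPM in young control libraries. These overlapped, and Axl was not called in any of the 3 comparisons (interval -0.66 to 0.08 for EGCG and -0.33 to 0.39 for age). With library size only its level was lower with EGCG than in young control (-0.45, adjusted p = 0.0284).

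Ankrd1 (chromosome 19, 36111961 to 36120099, minus strand), a widely used YAP reporter in other tissues, was close to absent in the counts. It had 2, 0 and 1 counts in EGCG libraries, 1, 0 and 0 in aged control libraries and 1, 2 and 1 in young control libraries. All 9 values lie under the 3 counts used as the floor, so no fold change is given and a difference was not detectable at this depth. The gene carries 2 TEAD motifs in its promoter window, as shown above.

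Per length of transcript, Ccn2 had the highest level in each group, with 28.8 ± 2.23 FPKM in EGCG, 53.2 ± 2.66 in aged control and 37.7 ± 2.31 in young control libraries. Yap1 came second in both aged groups (21.8 ± 0.684 FPKM with EGCG and 23.9 ± 0.715 in aged control), while in young control Ccn1 did (27.7 ± 0.45 FPKM), followed by Amotl2 and Yap1, whose libraries overlapped at 14.5 to 14.7 and 13.9 to 14.6 FPKM. Ccn1 ranked below Amotl2 with EGCG (8.85 ± 0.398 FPKM, with Amotl2 at 15.8 ± 1.75 FPKM) and above it in aged control (15.5 ± 0.389 FPKM, with Amotl2 at 14.3 ± 0.297 FPKM). Lats1, Lats2 and Tead1 followed, all between 3.41 and 9.09 FPKM, with Lats1 and Lats2 overlapping in EGCG libraries and Lats1 and Tead1 and then Tead1 and Lats2 overlapping in aged control libraries. Wwtr1 and Axl overlapped in each group, between 1.11 and 2.76 FPKM, and Ankrd1 was last, at 0.0814 FPKM or less.

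Among 10394 genes with at least 5 CPM on average, those whose centred log2(CPM + 1) values over the 9 libraries were closest to Ccn2 were Tnfrsf21, Fam107a and F5 (coagulation factor V), with root mean square differences of 0.121, 0.125 and 0.127. Tnfrsf21 had a mean of 12.2 CPM in EGCG, 28.1 in aged control and 14.3 in young control libraries, the same peak in aged control as Ccn2. Closest to Ccn1 were Plekha4 (0.125), Zfp579 (0.158) and Adamts1 (0.172), a secreted metalloproteinase that had 5.81 CPM in EGCG, 9.63 in aged control and 14.5 in young control libraries. Closest to Yap1 were Nabp2, Taf10 and Krcc1, with differences of 0.0444 to 0.048. These distances describe 9 libraries that fall into 3 groups and carry no test.

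The list around the pathway held 37 genes of the Hippo kinase cassette, its adaptors and upstream regulators. With EGCG 1 was higher and 5 were lower than in aged control (median log2 fold change -0.05), against 13.8% and 10.3% of all genes. The higher one was Taok3, a kinase of the TAO family that acts upstream of the MST and LATS kinases (0.66, edgeR adjusted p = 2.18e-06). The lower ones were Fat4 (-0.51), a protocadherin, Wtip (-0.66), a LIM protein of the Ajuba family that binds LATS, Ptpn14 (-0.35), a phosphatase that binds YAP, Sav1 (-0.34), the scaffold between the MST and LATS kinases, and Fat1 (-0.17), the last 2 named to complete the count after their values were seen. This split depended on scaling, with 6 higher against 2 lower with library size only, and 13 higher against 2 lower when scaled to lens fibre markers. In aged against young control 17 of the 37 rose and 11 fell (median 0.14), against 35.4% and 33.8% of all genes tested. With library size only 6 rose and 16 fell, and 13 did each when scaled to lens fibre markers. Those with the smallest p were Taok3 (-2.08), Map4k4 (0.60), a kinase that can activate LATS, Slmap (-0.81), a STRIPAK subunit that docks the phosphatase onto the MST kinases, and Btrc (-0.75), the ubiquitin ligase subunit that recognizes phosphorylated YAP.

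Among the TEAD paralogs and their other cofactors, 5 of 7 listed genes were tested and none was called with EGCG by edgeR (log2 fold changes between -0.36 and 0.15), nor by DESeq2, with 1, Tead2 at -0.36, under an unadjusted p of 0.05. Between aged and young control 3 were higher and 1 lower, against 35.4% and 33.8% of all genes tested. Vgll4, which competes with YAP for TEAD, had 58.7 ± 3.73 CPM in EGCG, 65.0 ± 1.33 in aged control and 41.2 ± 3.23 in young control libraries, a rise with age of 0.66 (edgeR adjusted p = 3.23e-10). Vgll3, another TEAD cofactor, rose by 1.03 and Tead4 by 0.98 (adjusted p = 0.0417, at under 3 CPM in every group), while Tead3 fell by -0.62. With library size only, and when scaled to lens fibre markers, 2 were higher and 1 lower.

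A signature of YAP/TAZ target genes used in tumours was examined without the members it shares with the list above. Of its 15 tested genes, 1 was higher and 5 were lower with EGCG, with a median log2 fold change of -0.13, or 0.000654 using library size only, against 10.3% of all genes called lower. Nt5e, the ecto-nucleotidase CD73, was higher by 1.89 (edgeR adjusted p = 7.73e-14). Tgfb2, a ligand of the TGF-beta family, was lower by -0.24, the Arf GTPase-activating protein Asap1 by -0.26 and Ptpn14 by -0.35, and the other lower genes, named to complete the count, were Myof (-0.45) and Igfbp3 (-1.30, at under 3 CPM on average in each group). None of these 5 was called lower with library size only or when scaled to lens fibre markers, where 2 and 3 genes of the signature were called higher. In aged against young control 9 of the 15 rose and 3 fell (median 0.45), against 35.4% and 33.8% of all genes tested. Scaling by library size alone gave 5 and 4. Dock5 (0.63), an activator of Rac, Arhgef17 (0.69), a guanine nucleotide exchange factor, and Tgfb2 (0.55) rose, and Nt5e fell by -3.69.

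Genes driven by SRF and its actin-regulated coactivators of the MRTF family share several targets with YAP. With EGCG 14 of 20 tested genes were lower and 1 was higher, with a median of -0.37, where 10.3% of all genes were called lower. Using library size only, 11 were lower and 1 higher, and 9 were lower and 1 higher when scaled to lens fibre markers. In aged against young control 12 rose and 4 fell (median 0.59), against 35.4% and 33.8% of all genes tested. Scaling by library size alone gave 10 and 7. Between EGCG and young control 9 were higher and 5 lower (median 0.14), or 6 and 8 by library size alone, against 32.3% and 31.4% of all genes. Srf itself had 35.0 ± 1.82 CPM in EGCG, 60.1 ± 3.47 in aged control and 28.3 ± 1.87 in young control libraries, a fall with EGCG of -0.78 (edgeR adjusted p = 3.44e-10). Acta2, smooth muscle actin, had 524 ± 15.2, 739 ± 22 and 292.5 ± 7.39 CPM in EGCG, aged control and young control libraries, a fall with EGCG of -0.50 (adjusted p = 8.07e-13). Actb (-0.55) and Actg1 (-0.39) were also lower with EGCG, although these actin genes are closely related to each other and to processed pseudogenes, so the assignment of their reads is uncertain. Cnn3, calponin 3, had 979 ± 9.38 CPM in EGCG, 1168 ± 35.7 in aged control and 414 ± 5.34 in young control libraries. Srf and Acta2 kept both calls under each of the 9 alternatives other than those that left out 1 library, which were not examined for these genes. The higher gene with EGCG, named to complete the count, was Filip1l (1.54).

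**Figure D4:**
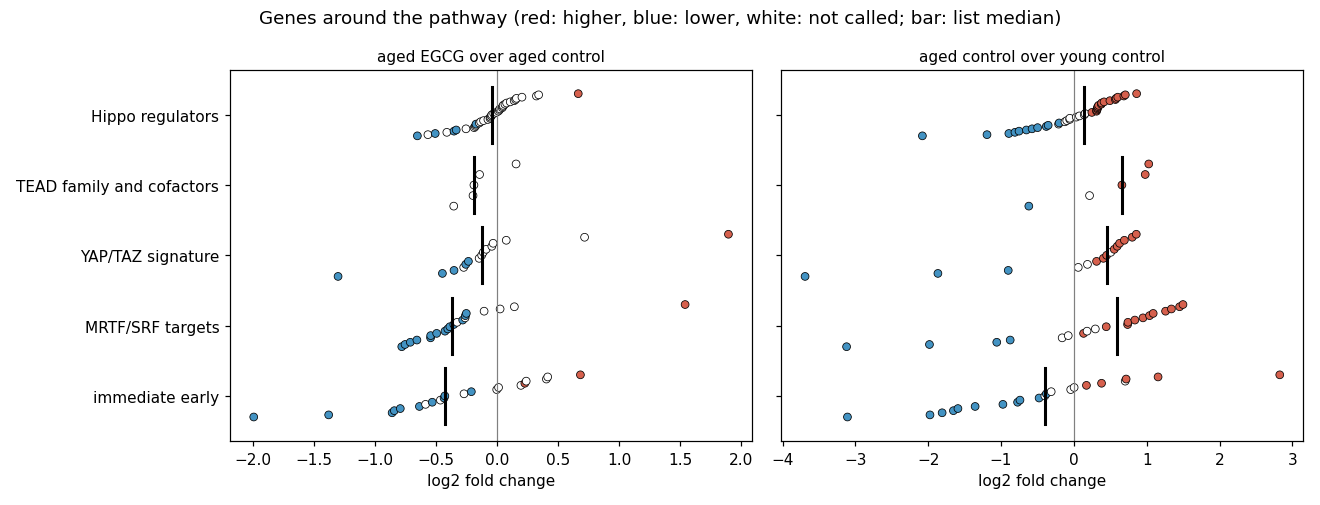
Log2 fold changes (horizontal axes, edgeR) of the tested genes of 5 lists around the pathway, for aged EGCG over aged control and aged control over young control; red points were called higher, blue points lower, white points were not called, and bars mark list medians. The MRTF/SRF list has medians of -0.37 and 0.59, and the Hippo regulators of -0.05 and 0.14, which with library size only turned to 0.08 and -0.18.

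Ccn1 is also an immediate early gene, a class that responds within minutes to serum, stretch or tissue handling. Of 21 tested immediate early genes 10 were lower and 2 higher with EGCG, with a median of -0.43 (6 higher and 8 lower when scaled to lens fibre markers), and 5 rose and 11 fell in aged against young control (median -0.40), or 3 and 16 with library size only (median -0.72). Over all genes tested 10.3% were called lower with EGCG and 33.8% with age. Dusp1, a MAP kinase phosphatase, had 55.0 ± 0.515 CPM in EGCG, 98.6 ± 5.64 in aged control and 98.5 ± 0.965 in young control libraries. Fos had 24.9 ± 1.49 CPM in EGCG, 38.7 ± 1.55 in aged control and 153 ± 6.76 in young control libraries, the same order of groups as Ccn1, whereas Egr1 differed between the aged groups by less than their spread, at 26.1 ± 2.09 CPM in EGCG, 25.9 ± 1.5 in aged control and 91.0 ± 5.11 in young control libraries. Fosb (-2.00) and Maff (-1.38) were lower with EGCG, and Jun fell with age by -1.36. The part of this class in the Ccn1 and Ccn2 results was not tested.

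Among the other CCN genes, Ccn4 was lower in aged than in young control by -3.73 and higher with EGCG by 1.80 (edgeR adjusted p = 0.000206), at 2.32 ± 0.0958 CPM in EGCG, 0.663 ± 0.349 in aged control and 8.90 ± 1.46 in young control libraries. Ccn5 was higher in aged than in young control by 1.60, and Ccn3 was not called. Of the 4 other CCN genes 3 were tested. The 4 together held 97 to 209 counts a library, so these fold changes rest on few counts. Of the genes related to Axl, none of the 4 tested was called with EGCG by edgeR, with log2 fold changes between -0.13 and 0.28. None of the 4 was under an unadjusted p of 0.05, and 1 was higher with library size only. The shares called over all genes tested, for these and the CCN genes, were 24.1% with EGCG and 69.2% in aged against young control. Gas6, the ligand of Axl, had 294.5 ± 10.8 CPM in EGCG, 312 ± 5.02 in aged control and 196.5 ± 3.85 in young control libraries, and rose with age by 0.67 (adjusted p = 1.06e-16), while Pros1 (-0.84) and Tyro3 (-0.49) fell.

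Markers of other cell types moved with the groups. Over all genes tested 24.1% were called with EGCG and 69.2% in aged against young control. Of 32 retina markers 31 were higher with EGCG and none lower, and all 32 fell in aged against young control. Taok3, Nt5e, Ccn4 and Filip1l had the same order of groups as the retina share, highest in young control and lowest in aged control, whereas Yap1, Tead1 and Ccn2 were highest in aged control, where that share was lowest. Ccn1 was lowest in EGCG libraries, where the retina share was intermediate. Müller glia express Yap1. The 12 markers listed for Müller glia and astrocytes took 0.596 to 0.609% of counts in EGCG, 0.621 to 0.644% in aged control and 0.486 to 0.492% in young control libraries. With EGCG 4 were higher and 5 lower, and in aged against young control 4 were higher and 7 lower (median -0.78). Their summed share was higher in aged than in young control although more markers fell than rose. The sum therefore cannot stand for the amount of glia. Rlbp1 among these markers had 69.1 ± 3.35 CPM in EGCG, 24.0 ± 3.13 in aged control and 126 ± 1.21 in young control libraries. The 19 endothelial and mural markers belong to cells in which Ccn1 and Ccn2 are also abundant. They took 0.0155 to 0.0162% of counts in EGCG, 0.0163 to 0.0181% in aged control and 0.0285 to 0.0301% in young control libraries. Among them 4 were lower and 1 higher with EGCG. In aged against young control 12 were lower and 1 higher (median -1.11), against 33.8% and 35.4% of all genes tested. The 11 fibroblast and stromal markers took 0.042 to 0.0439% of counts in EGCG libraries. The share was 0.0447 to 0.05% in aged control and 0.0465 to 0.0479% in young control libraries. Of the 9 tested, 3 were lower and 1 higher with EGCG. Dpt was at 0 in the EGCG libraries. The 11 corneal and conjunctival markers took 0.533 to 0.567%, 0.615 to 0.631% and 0.354 to 0.364% in EGCG, aged control and young control libraries. Of the 10 tested, 3 were lower and 1 higher with EGCG. In aged against young control 4 were higher and 5 lower (median -0.87), although the sum was higher in aged control. Krt12, the keratin of the corneal epithelium, averaged 3 CPM or less in each group. Krt14 was at 0 in aged control and Muc4 at 0 in EGCG libraries. The 12 ciliary, iris and pigment cell markers took 0.0204 to 0.0217% of counts in EGCG libraries. The share was 0.0291 to 0.0298% in aged control and 0.0287 to 0.0294% in young control libraries. Of the 11 tested, 5 were lower and 1 higher with EGCG. Opn5 was at 0 in both control groups. The 12 immune markers took 0.00377% or less in every library. None of the 8 tested was called with EGCG by edgeR or had an unadjusted p under 0.05. Cd79a was at 0 in EGCG and Cd3e and S100a8 in young control libraries. The part of these cell types in the results was not tested.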

How the data were processed

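Per the labels' protocols, libraries were made with a SMARTER mRNA-Seq kit, and per the submitters' processing notes the build was GRCm38 (mm10). No aligner, counter, annotation or strand setting is named there. The authors deposited raw read counts per gene symbol and, in a second table, FPKM values, which in all 138164 entries with a count equalled count over length and library total within 0.01%. Counts were fitted with edgeR 4.0.16 in R 4.3.3 (filterByExpr, TMM, quasi-likelihood, 1 fit of 9 libraries, Benjamini-Hochberg over 13711 genes, two-sided). Alternatives used DESeq2 1.42.0, limma 3.58.1 on log2(FPKM + 1) and log2(FPKM + 0.1), other scalings (library size only, and the summed counts of 21 lens fibre markers), removal of each library's gene length trend, no filter, 2 groups only, a replicate block and each library left out. Scripts were tested on simulated data. Libraries of 1 group differed by 2.58 to 4.62 times sampling noise, so none was merged. The members, gene lists and tests were chosen with earlier results of these data known. Genes outside the members are named by up to 4 called genes with the smallest p in each list and comparison, and by pattern distance to Ccn2, Ccn1 and Yap1. Others named to complete a count, to give a marker or to describe a group were chosen after their values were seen. One retina marker and one further gene list are not reported here.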

Additional observations from a re-analysis of the deposited data

How the results depend on the processing

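Over 18 alternatives, genes called ranged between 2803 and 4940 in EGCG against aged control, 8960 and 9686 in aged against young control, and 8009 and 8947 in EGCG against young control. Members called in EGCG against aged control were 3 with library size only, 3 when scaled to lens fibre markers, 2 on log2(FPKM + 1) and 2 on log2(FPKM + 0.1), against 5 as reported, and in these settings the median of all genes lay at 0.12, 0.20, 0.08 and 0.12. The replicate numbers did not pair the libraries (correlations of deviations -0.00545 to 0.0361 for equal numbers, -0.0281 to 0.0231 for unequal ones). With the replicate block 3338, 9451 and 8694 genes were called in the 3 comparisons in the order above, and 5, 5 and 6 members, as without it.

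Values that changed sign belonged to members not called, other than Amotl2 in aged against young control (-0.0343 with library size only, -0.0314 on log2(FPKM + 1), -0.0333 on log2(FPKM + 0.1)); the cause was not tested. In EGCG against aged control, Lats1 turned to 0.0946 with library size only, 0.169 scaled to lens fibre markers, 0.0785 on log2(FPKM + 1) and 0.0892 on log2(FPKM + 0.1), and Lats2 to 0.123, 0.196, 0.106 and 0.122 in the same settings. In aged against young control, Axl turned to -0.292 with library size only, -0.0145 with DESeq2, -0.0762 scaled to lens fibre markers, -0.181 and -0.252 on log2(FPKM + 1) and log2(FPKM + 0.1), and -0.0136 with these groups alone. With the length trend removed Wwtr1 turned to 0.0512, Lats1 to 0.141 and Lats2 to 0.163, and without the filter Lats2 to 0.000695. In EGCG against young control, Lats2 turned to 0.0788 scaled to lens fibre markers and 0.143 with the length trend removed, where Lats1 was at 0.101. Leaving out 1 library at a time gave, in EGCG against aged control, -0.103 to 0.0518 for Lats1, -0.0599 to 0.0576 for Lats2, -0.0675 to 0.0691 for Amotl2 and -0.0828 to 0.103 for the log2 Lats2 to Lats1 ratio. It gave -0.224 to 0.0736 for Wwtr1, -0.0661 to 0.0517 for Lats2 and -0.138 to 0.223 for Axl in aged against young control, and -0.036 to 0.0377 for Lats2 in EGCG against young control. At 74 to 191 counts a library, Wwtr1 is limited by depth, and Ankrd1 lies under the floor.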
